A study of Mus musculus with 32 samples.

Results

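Ion channel genes were followed through the chromatin-enriched RNA and the R-loop maps of wild-type (WT) mouse embryonic stem (ES) cells and cells labelled as a triple knockout of linker histone H1 (H1-TKO). A transcript was counted when the gene name it carries starts with Kcn, Cacn, Scn, Trpv, Trpm, Trpc, Grik, Gria, Grin or Gabr, whatever its class. A single gene with such a name is left out by the rule. This gave 126 of the 5723 transcripts that the authors list as differing between the genotypes, under 48 gene names. The rule used names only and no measured value.

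Both genotypes were grown with serum and leukaemia inhibitory factor. Chromatin-enriched RNA (cheRNA), the RNA left in the insoluble chromatin once a urea and detergent wash has taken soluble material from the nuclei, came from 3 samples per genotype. R-loops, in which RNA pairs with 1 DNA strand and displaces the other, were mapped by MapR. There a fusion of RNase H and micrococcal nuclease (RNH) cuts out the DNA near the hybrid, with 2 RNH libraries and 1 nuclease-only (MNase) library per genotype. The labels do not say whether replicates are separate cultures or whether the TKO line is 1 clone, so any p-value measures only the spread between these samples. The cheRNA table gives 1 log2 value per transcript, no value per sample and no p-value, and lists only absolute values of at least 1 (2-fold). No test of genotype could therefore be made on RNA, and a gene that is not listed cannot be called unchanged. The values below read as TKO over WT. This direction is inferred from the transcripts of 3 H1 genes, Hist1h1c, Hist1h1d and Hist1h1e, which take the values -3.61, -5.02 and -4.83 when read this way.

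Ion channels are membrane proteins that let selected ions cross the lipid bilayer and so set the electrical state and calcium signals of a cell. Most are built from pore-forming subunits with accessory subunits that change trafficking and gating. Voltage-gated potassium, calcium and sodium channels, and the receptors for glutamate and GABA, are best known from neurons and muscle, whereas TRP channels sense heat, lipids and calcium demand in many tissues. Many of these genes are long and have large introns. Embryonic stem cells do not fire action potentials, and most of the family is known for expression in differentiated tissue.

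The listed channel transcripts were more often higher in TKO than lower, and the share depended on the class of transcript. Of the 126, 80 (63.5%) were higher in TKO and 46 were lower, beside 60.1% higher over all listed transcripts. Among the 90 gene transcripts, which overlap the named gene on its own strand (74 wholly inside it, 16 running past an end), 50 (55.6%) were higher, beside 45.0% of all listed gene transcripts. Their median log2 value was 1.19, and that of all listed gene transcripts was -1.09. Among the 36 transcripts of other classes, 30 (83.3%) were higher, beside 75.6%. These 36 were 22 intergenic, 10 antisense and 4 5-prime transcripts. Of the intergenic ones 18 (81.8%; 74.0% of all) were higher, of the antisense ones 10 of 10 (86.6% of all), and of the 5-prime ones 2 of 4 (66.4% of all). At an absolute log2 of at least 2, a 4-fold difference, stood 65 of the 126 (51.6%), close to the 50.8% of all listed transcripts. Within that stricter set the gene transcripts were higher in 52.4% of cases, beside 51.1% of all, so the excess over the table was small there. Over all classes the stricter share was 66.2%, below the 69.4% of all.

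**Figure D1:**
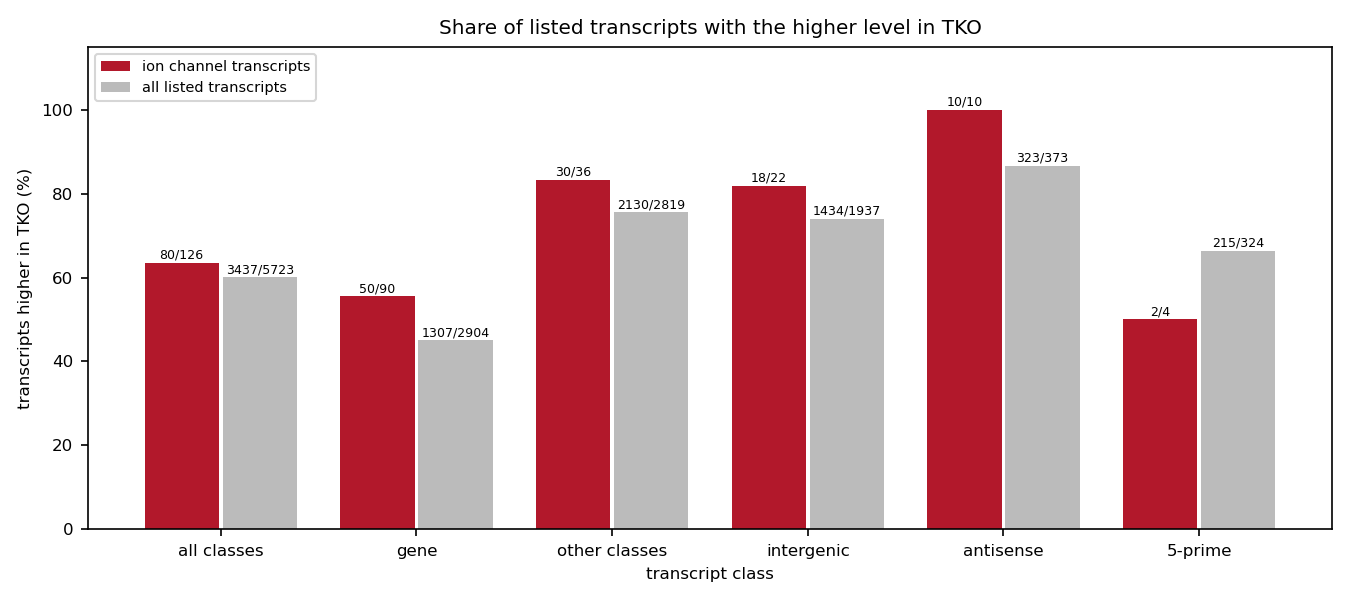
Bars give the percent of listed transcripts that were higher in TKO (y axis, from 0) by transcript class (x axis), for ion channel transcripts in red and for all listed transcripts in grey, with counts above each bar. Gene transcripts reached 55.6% against 45.0%, and the other classes together 83.3% against 75.6%; no error can be given, since the table holds 1 value per transcript.

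Counted by gene, 34 channel genes had gene transcripts, 20 of them higher and 14 lower, and no gene had gene transcripts in both directions, as only 6 did in the whole table. The other 14 names came only from intergenic, antisense or 5-prime transcripts. Of the 196 protein-coding channel genes in the annotation, the 34 make up 17.3%, beside 8.91% of all protein-coding genes. The higher genes were 10.2% of the channel genes (4.11% of all protein-coding genes) and the lower ones 7.14% (4.77% of all). Length moved with this share. Listed channel genes had a median length of 105 kb and channel genes without a listed gene transcript 42.5 kb. Among channel genes of 100 kb or longer, 17 of 68 (25.0%) were listed, beside 20.2% of all genes of that length, and among shorter ones 17 of 128 (13.3%), beside 7.47%. The part of gene length in the count was not tested further. Names that do not appear at all, by family, were 28 voltage-gated potassium, 14 potassium accessory, 13 inward rectifier, 9 tandem-pore and 6 calcium- or sodium-activated potassium genes. They were also 8 calcium pore and 7 calcium accessory, 11 voltage-gated and 3 epithelial sodium, 17 TRP, 12 glutamate receptor and 16 GABA-A receptor genes, and 10 names that encode no subunit.

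**Figure D2:**
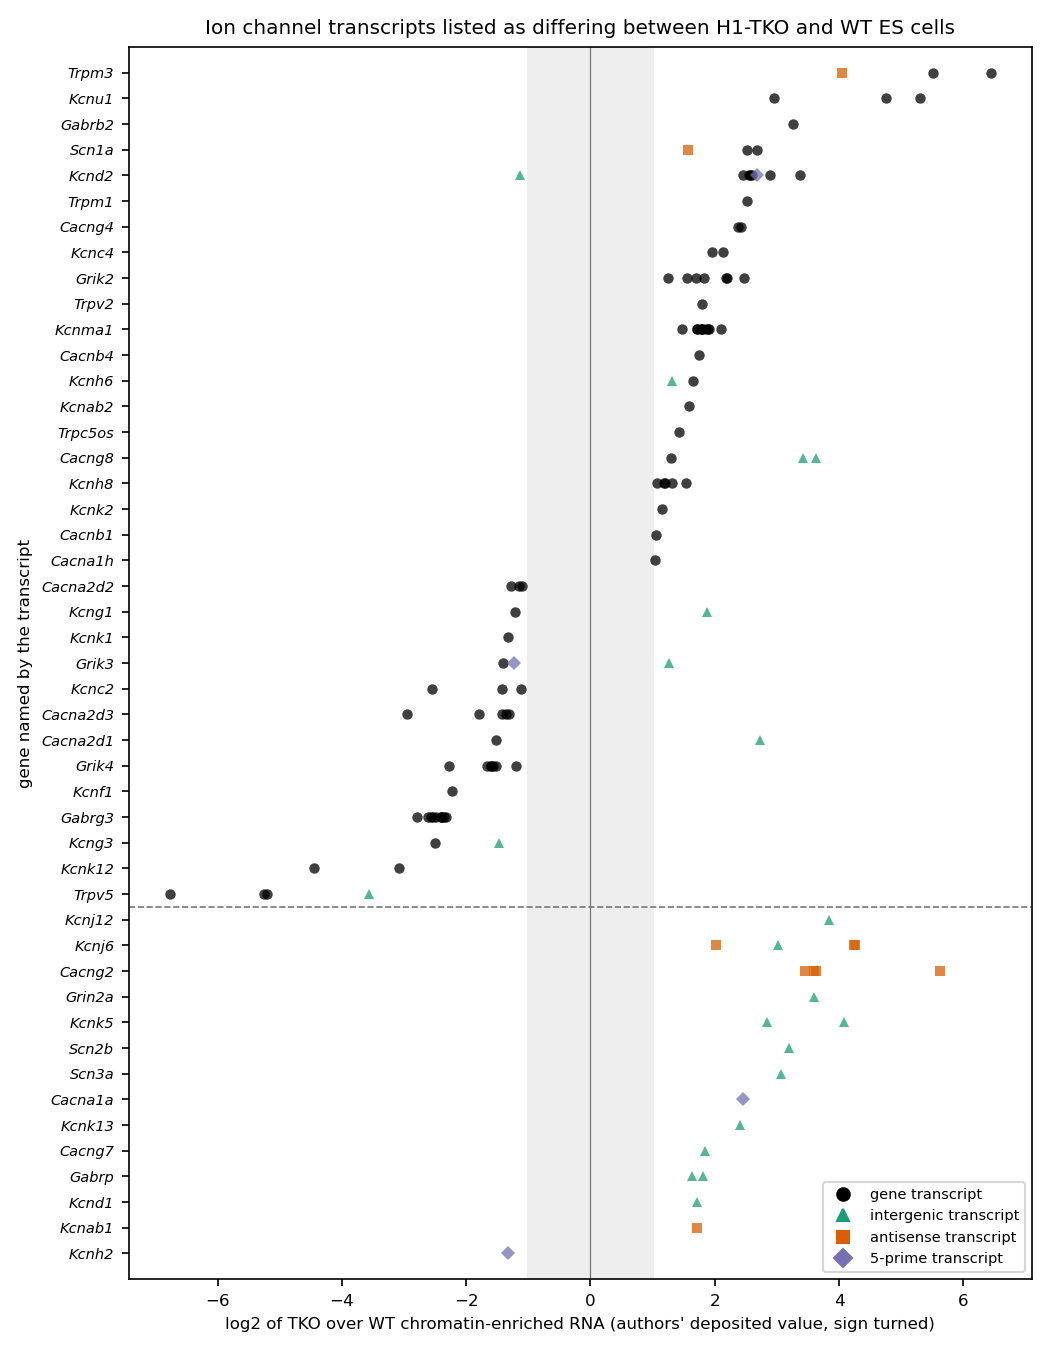
Every listed channel transcript, other than those of 1 gene not reported here, is a point at its log2 value of TKO over WT (x axis), in the row of the gene it is named for (y axis), with shape and colour for its class; the grey band marks the values under 1 that the table does not hold, and genes under the dashed line have no gene transcript. Trpm3 reaches 6.45 and Trpv5 reaches -6.77, and the gene transcripts of each gene stay on 1 side of 0.

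The family held the lowest value of the table but not the highest. Trpm3, a calcium-permeable TRP channel gated by heat and steroids, had gene transcripts at log2 5.51 and 6.45 (45.7-fold and 87.1-fold). The value of 6.45 is the highest of the channel transcripts and has rank 63 from the top of the whole table. Trpv5, the epithelial channel for calcium reabsorption in the kidney, had gene transcripts at -5.20, -5.25 and -6.77, and the last is the lowest value of the whole table (109-fold lower). The stretches just upstream of both genes, read from RefSeq on GRCm38.p6, are shown because these genes are the extremes and because MapR peaks reached only 1 of them. Capitals mark CpG dinucleotides.
Trpm3, chr19:22138796-22139045, plus strand: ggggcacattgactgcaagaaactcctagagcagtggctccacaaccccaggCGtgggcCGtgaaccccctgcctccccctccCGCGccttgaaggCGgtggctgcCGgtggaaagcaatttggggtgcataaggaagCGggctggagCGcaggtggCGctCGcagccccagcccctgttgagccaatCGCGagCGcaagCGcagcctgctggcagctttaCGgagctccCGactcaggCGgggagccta
Trpv5, chr6:41680770-41680973, minus strand: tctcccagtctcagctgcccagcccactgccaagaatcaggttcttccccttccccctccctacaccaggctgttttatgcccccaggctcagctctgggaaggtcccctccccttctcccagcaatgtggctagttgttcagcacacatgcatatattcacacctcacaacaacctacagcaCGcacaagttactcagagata
The Trpm3 stretch of 250 bases holds 17 CpG and has 66.4% G and C, and the Trpv5 stretch of 204 bases, which stops before the first annotated exon, holds 1 CpG and has 54.4%.

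Trpm3 lies at chr19:22139046-22995410 (plus strand, 856 kb), and its 2 gene transcripts are intronic pieces of 1679 and 2738 bases about 600 kb into the gene. They cover 0.52% of it. An antisense transcript of 20339 bases over the same part of the gene stood at 4.04. The values therefore describe a small intronic stretch and not the whole of Trpm3. Trpv5 lies at chr6:41652173-41680769 (minus strand), and each of its 3 pieces meets an exon. These pieces span 1082 to 1329 bases and cover 11.9% of the gene, so the values are not those of the whole gene. Another transcript, classed as intergenic but on the strand of Trpv5 and over its 3-prime end, stood at -3.56. The other TRP genes within the rule were Trpm1, a channel of retinal bipolar cells and melanocytes, at 2.52, and Trpv2 at 1.80. Each had 1 gene transcript. Of 21 annotated TRP genes with Trpv, Trpm or Trpc names 4 were listed, 3 higher and 1 lower, and 17 do not appear. Trpa1, a TRP gene whose prefix the rule leaves out, was listed at 1.44 and is counted below with the other channel families. Trpc5os, at 1.42, carries the TRP prefix but encodes no channel subunit.

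Among voltage-gated potassium channels, which open at depolarisation and repolarise the cell, 9 of 39 genes for pores and silent subunits had gene transcripts, 4 higher and 5 lower. Kcnd2, which carries fast A-type current, lies at chr6:21215503-21729805 (plus strand, 514 kb) and had 6 gene pieces at 2.46, 2.56, 2.57, 2.61, 2.89 and 3.38. A 5-prime transcript over its start stood at 2.69, so the start and pieces as far as 383 kb into the gene were all between 5.50-fold and 10.4-fold higher. A single intergenic transcript that carries its name, 533 kb away, stood at -1.13. Kcnc4 had pieces at 1.95 and 2.13. Kcnh8 and Kcnh6, of the ether-a-go-go group, were higher too, Kcnh8 in 5 pieces from 1.07 to 1.53 and Kcnh6 in 1 at 1.65.

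The RefSeq stretch before the Kcnd2 start is shown because the 5-prime transcript runs through it and the largest group of higher voltage-gated pieces follows it. Capitals mark its 22 CpG.
Kcnd2, chr6:21215096-21215345, plus strand: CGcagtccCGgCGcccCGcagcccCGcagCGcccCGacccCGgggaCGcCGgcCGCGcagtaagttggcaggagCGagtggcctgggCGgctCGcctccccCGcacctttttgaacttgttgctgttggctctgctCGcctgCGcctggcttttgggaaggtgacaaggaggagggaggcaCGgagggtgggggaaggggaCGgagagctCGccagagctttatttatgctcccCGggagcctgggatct
It has 68.8% G and C. RNH peaks reached it in WT replicate 1 and TKO replicate 1.

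The lower voltage-gated genes included Kcnf1 (-2.22), Kcng1 (-1.21), Kcng3 (-2.49) and Kcnc2. Kcnf1, Kcng1 and Kcng3 encode electrically silent subunits, which form no channel alone and modify other pores. Kcnc2, a fast delayed rectifier, had pieces at -1.12, -1.41 and -2.55. An intergenic transcript named for Kcng3, opposite in strand and across the gene's start, was lower (-1.47), and one named for Kcng1 was higher (1.87, 29.6 kb away). Of the potassium channel accessory genes, Kcnab2, a cytoplasmic beta subunit, stood at 1.59 in a transcript over 99.5% of the gene.

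The calcium- or sodium-activated potassium group had 2 listed genes, both higher. Kcnma1, the pore of the large-conductance BK channel, lies at chr14:23289431-24014491 (minus strand, 725 kb) and had 10 pieces between 1.47 and 2.11, which cover 41.5% of the gene. Kcnu1, its sperm relative, had pieces at 2.95, 4.75 and 5.31, which cover 20.2% of the gene. Those at 4.75 and 5.31 span 1514 and 1401 bases. The tandem-pore leak channels, which hold the resting potential, divided. Kcnk12 had pieces at -3.08 and -4.45 and Kcnk1 1 at -1.32, while Kcnk2, a stretch-sensitive channel, had a 513-base intronic piece at 1.15. None of the 15 inward rectifier genes had a gene transcript.

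Among calcium channel accessory genes the listed members of 1 subunit kind shared a direction, a grouping seen after the values and resting on few genes. Of 4 genes of the extracellular alpha2delta subunits, which promote surface delivery of the pore, 3 were listed, all lower: Cacna2d1 at -1.51, Cacna2d2 at -1.10, -1.16 and -1.28, and Cacna2d3 in 5 pieces from -2.96 to -1.32. Of 4 cytoplasmic beta subunit genes, Cacnb1 (1.05) and Cacnb4 (1.74) were listed, both higher. Of 8 genes of the gamma family, some of whose members act on AMPA-type glutamate receptors, 2 had gene transcripts, both higher: Cacng4 at 2.37 and 2.43, and Cacng8 at 1.30. Accessory genes thus counted 4 higher and 3 lower of 16 annotated. Of the 10 pore genes only Cacna1h, a low-voltage-activated channel, had a gene transcript, at 1.04. Cacna1a, the P/Q-type pore of presynaptic terminals, had a 5-prime transcript at 2.46.

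Voltage-gated sodium channels, whose pores start the action potential, gave 1 listed gene of 14 for pores and beta subunits, Scn1a, a pore gene, with pieces at 2.52 and 2.68 and an antisense transcript at 1.58. The epithelial sodium channel genes do not appear. Among ionotropic glutamate receptors all 3 listed genes were kainate receptors, and they differed in direction. Grik2, at chr10:49094833-49788766 (minus strand, 694 kb), had 7 pieces from 1.25 to 2.47. Grik4, at chr9:42518135-42944493 (minus strand, 426 kb), had 7 from -2.28 to -1.20 over 62.6% of the gene. Grik3 had a single transcript over 99.9% of the gene at -1.40 and a 5-prime transcript at -1.23. No AMPA-type gene and no gene transcript of an NMDA-type gene was listed. Of the GABA-A receptor genes, which carry fast inhibition, Gabrb2 had 1 piece at 3.26 (9.58-fold). It spans 3266 bases, 1.56% of the gene. Gabrg3, at chr7:56716465-57387188 (minus strand, 671 kb), had 10 pieces between -2.78 and -2.32. Grik2 and Grik4, and Gabrb2 and Gabrg3, so stood on opposite sides within 1 receptor class.

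Pieces of 1 gene shared a direction, as in nearly the whole table. The 16 genes with at least 2 gene transcripts held 72 of the 90, and in all 16 every piece had the same direction, beside 325 of 331 such genes (98.2%) in the table. The range of log2 within a gene had a median of 0.92, from 0.06 in Cacng4 to 2.36 in Kcnu1, wider than the median of 0.50 over all such genes of the table. A range depends on the number of pieces in a gene, and these medians are not adjusted for it. Pieces of 1 gene come from the same samples and often from the same primary transcript, so they are not replicates. In 11 of the 16 genes (68.8%; 59.8% of all such genes) the piece with the largest absolute value was also the shortest. In 8 (50.0%; 51.4% of all) it was the one farthest downstream. Cacna2d3 is an example, with values from -1.80 to -1.32 in the first 77 kb and -2.96 in a piece of 2311 bases about 440 kb downstream. By annotation the listed spans were mostly intron: 36 of the 90 gene transcripts met no annotated exon, and the median share of exon bases in a span was 0.73%. Where reads lie within a span is not given in the table. Gene pieces that were higher had a median of 41.0% G and C and lower ones 45.5%, whereas over all listed gene transcripts the medians were 45.6% and 45.2%. These medians count pieces, so genes with many pieces, such as Kcnd2, Grik2 and Gabrg3, weigh more, and no value per gene was taken.

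**Figure D3:**
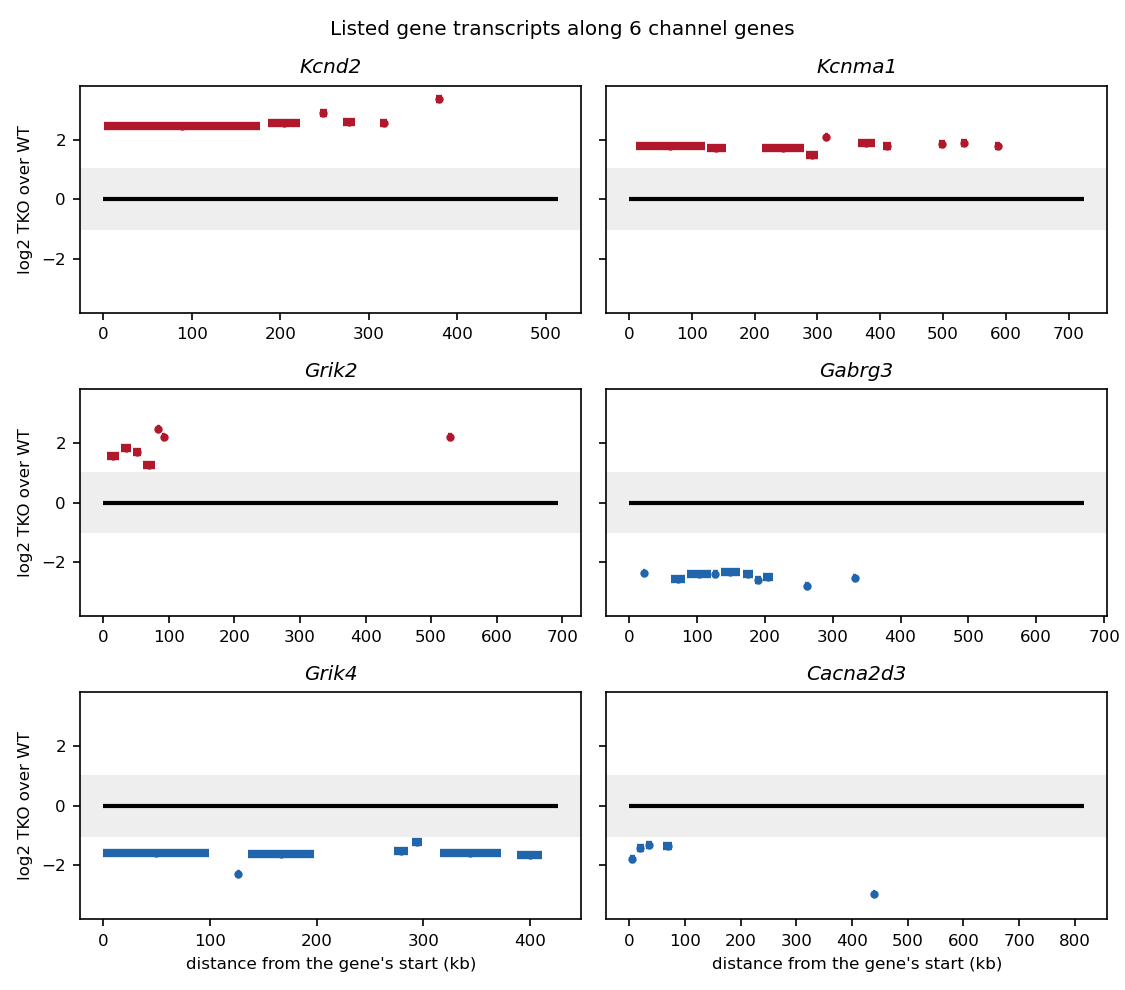
Each bar is a listed gene transcript at its log2 value of TKO over WT (y axis), drawn over the stretch it covers in kb from the start of the gene (x axis), red where higher and blue where lower; the black line is the gene and the grey band the values under 1 that the table does not hold. The listed pieces of Kcnd2, Kcnma1 and Grik2 are above 0 and those of Gabrg3, Grik4 and Cacna2d3 below, with the value of -2.96 in Cacna2d3 far from its other pieces.

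Transcripts of other classes were mostly higher, and many were antisense to the channel gene. Of the 36, 19 lay over the named gene on the opposite strand, and 17 of these were higher. The 19 include 9 classed as intergenic. Of all listed antisense transcripts 86.6% were higher, and of all intergenic ones 74.0%, so the count was not set apart from the table. The highest, at 5.62, was at Cacng2, the AMPA receptor partner known as stargazin, which had 3 further antisense transcripts at 3.45, 3.60 and 3.62 and no gene transcript. Kcnj6, a G-protein-gated inward rectifier, had antisense transcripts at 2.02, 4.24 and 4.26 and an intergenic one on the same opposite strand at 3.02. Kcnab1, a beta subunit gene, had an antisense transcript at 1.71. The library kit keeps strand, per the labels' protocols, so these reads are separable from the gene's own.

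Of the 22 intergenic transcripts 11 lay outside the named gene, at a median distance of 27.8 kb. Those at Kcnk5 (2.84 and 4.08, starting 35.0 and 26.6 kb away), Kcnj12 (3.84) and Cacng8 (3.42 and 3.62, upstream of its start) were among the highest. The transcript named for Grin2a, an NMDA receptor gene, stood at 3.60 but lay 218 kb away, so the name says little about that gene. Scn3a (3.07), Scn2b (3.20), Kcnk13 (2.41), Cacng7 (1.85), Kcnd1 (1.71) and Gabrp (1.63 and 1.81) had intergenic transcripts, all higher. Kcnh2, the cardiac repolarising channel, had a 5-prime transcript that was lower, at -1.32, ending at the annotated start. Transcripts of opposite direction shared a name at 4 genes: Kcnd2 and Kcng1, described above, Cacna2d1 and Grik3. Cacna2d1 was lower at -1.51 with an intergenic transcript at 2.73, 51.9 kb past its end. Grik3 was lower with an opposite-strand transcript over its 3-prime end at 1.27. Kcnh6 was higher on both strands, with an opposite-strand transcript across its start at 1.32.

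Direction also moved with chromosome. All 10 channel transcripts on chromosome 11, among them Cacng4, Gabrb2, Trpv2 and Kcnj12, were higher, as were 88.4% of all listed transcripts there. On chromosome 9, where Grik4 and Cacna2d2 lie, 10 of 11 were lower, and 31.5% of all were higher. The mean share of higher transcripts of the same class and chromosome, with channel transcripts left out, was 40.0% for the gene transcripts, beside their 55.6%, and 78.8% for the other classes, beside their 83.3%. Without chromosome 11 the shares were 52.4% for gene transcripts (42.0% of all) and 81.2% for other classes (73.2% of all).

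Of 12 neuronal markers 5 were listed, all higher, where 8.91% of all protein-coding genes were listed and 4.11% were higher: Stmn2 at 4.00, Tubb3 at 2.77, Gap43 at 1.75 and 2.03, Snap25 at 1.36 and 1.52, and Nefl at 1.07. Glial markers gave Mbp at 1.58, and Olig2 and Slc1a3 lower at -1.17 and -1.54. Of 10 muscle markers Actn2 (1.98) was listed, and of 8 fibroblast markers none. None of 10 pluripotency markers appears, and the table gives no level for an unlisted gene, so the labelled cell type could not be checked by level. The part of these markers in the channel values was not tested, and in bulk RNA more cells of a type and more RNA per cell cannot be told apart.

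Outside the rule, 126 annotated genes of any type carry the name prefix of another channel family. Of these 19 had gene transcripts, 8 higher and 11 lower. Beside this stand 17.3% of the rule's protein-coding genes and 8.91% of all protein-coding genes. The 19 include Itpripl2 (-1.77) and Grid2ip (1.49), which carry such a prefix but encode no channel subunit. Of the gene transcripts under these prefixes 10 of 24 (41.7%) were higher, beside 45.0% of all. Of the transcripts of other classes under these prefixes 11 of 25 (44.0%) were higher, beside 75.6%. The 5 largest gene transcripts were at Ryr3 (5.37), a calcium release channel of the endoplasmic reticulum, Best3 (4.46 and 2.76), a chloride channel of the bestrophin family, and Clca4b (-2.94 and -2.62). Whether the rule's genes and these differ was not tested.

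R-loop maps gave values per library, and in the lists as deposited the libraries of 1 genotype differed more than the genotypes. The RNH lists hold 22336 and 6612 peaks in WT replicates 1 and 2, and 25392 and 6458 in TKO replicates 1 and 2. RNH peaks that met an MNase-only peak (568 in WT, 582 in TKO) were removed. A promoter is the window of 1 kb on both sides of any annotated start. Of the 48 channel genes, promoters met an RNH peak in 21 (43.8%) and 2 (4.17%) in the WT replicates, and in 28 (58.3%) and 6 (12.5%) in the TKO replicates. The WT and TKO values overlap in these lists of unequal length, where WT replicate 1 lies far above TKO replicate 2, and TKO is higher than WT within each replicate number. The means were 24.0% ± 28.0 (SD, n = 2) in WT and 35.4% ± 32.4 (SD, n = 2) in TKO. The difference of 11.5 points was smaller than either SD, with a two-sided exact permutation p of 0.67, where 0.33 is the smallest this design allows. It became -8.33 points without WT replicate 2 and -11.5 points without TKO replicate 1, each of which leaves the genotypes with unequal numbers of long and short lists. With every list held to its 6010 peaks of best q-value, the number in the shortest, the shares were 8.33% and 4.17% in WT and 10.4% and 12.5% in TKO, which do not overlap. That difference was 5.21 points, with an exact permutation p of 0.33, the smallest possible. At that length no share over all protein-coding genes was computed, so a difference particular to channel genes cannot be told from a general one. In the full lists the shares over all protein-coding genes were 45.0%, 11.4%, 50.1% and 14.5% in the same order. Over all 196 protein-coding channel genes they were 33.2%, 4.08%, 45.4% and 8.16%, under the shares of all genes in each library.

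**Figure D4:**
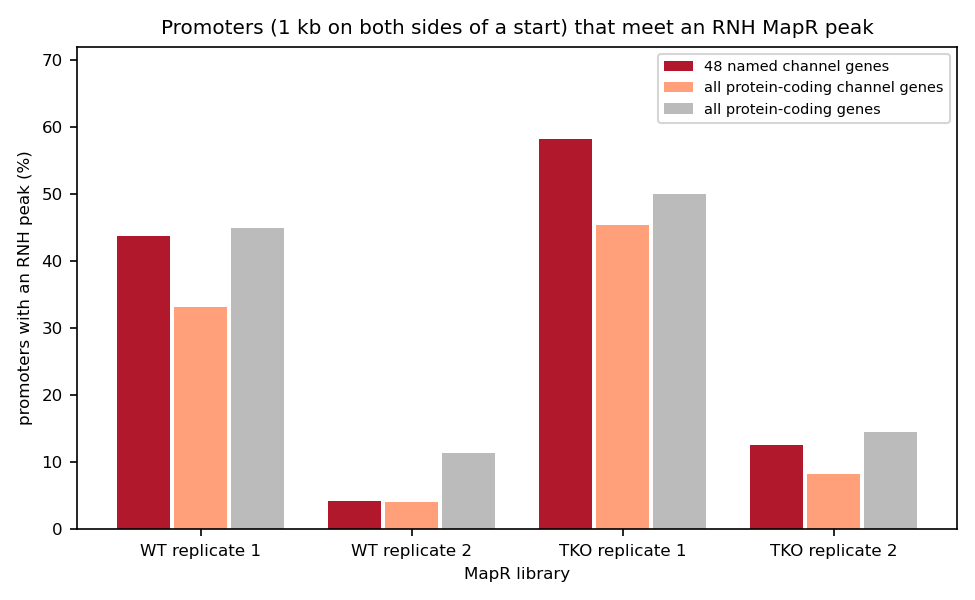
Bars give the percent of promoters that meet an RNH peak (y axis, from 0) in each of the 4 RNH libraries (x axis), for the 48 channel genes in the cheRNA table, all 196 protein-coding channel genes and all protein-coding genes. Replicate 1 of each genotype is several times higher than replicate 2 in every set: the 48 genes read 43.8% and 4.17% in WT and 58.3% and 12.5% in TKO.

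Few channel promoters met a peak in both replicates of a genotype. In WT these were 2 of 48 (4.17%), Kcnk12 among them, beside 10.7% of all protein-coding genes. In TKO they were 4 of 48 (8.33%), among them Cacna2d2, Cacng4 and Trpm3, beside 13.3%. At Kcnk12 the peaks lay 642 to 831 bases upstream of the start, with fold enrichments, as the authors' peak lists give them, of 3.84 and 4.81 in WT and 4.29 in TKO replicate 2. At Trpm3 the summits lay 19 to 35 bases past the start, at 5.87 in WT replicate 1 and 6.40 and 5.52 in TKO, and the peaks reach back into the sequence shown above. Cacng4 had promoter peaks in both TKO libraries (2.91 and 4.45) and neither WT library, and was higher in cheRNA. At Cacna2d2 the 2 TKO peaks lay at different annotated starts. Trpv5, Kcnu1, Scn1a and Gabrb2 were among the 16 genes with no promoter peak in any library.

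In each library the share of channel transcripts that met an RNH peak was below that of the whole table, a difference that was not tested. Of the 126, 25 (19.8%) and 3 (2.38%) met a peak in WT, and 24 (19.0%) and 7 (5.56%) in TKO. Over all listed transcripts the shares were 33.6%, 9.26%, 35.1% and 10.0%. The TKO minus WT difference was 1.19 points (exact permutation p of 1, two-sided), and -7.54 points without WT replicate 2 and -5.56 without TKO replicate 1, which again unbalance long and short lists. At equal list length it was 1.59 points (exact permutation p of 1). Peaks of both TKO replicates lay on the gene transcripts of Cacng4, Grik3 and Kcnh6 and on both intergenic transcripts of Gabrp, and peaks of both WT replicates on that of Cacna2d1. The controls held 1 WT MNase-only peak in Grik2 and 1 TKO MNase-only peak in Trpm3, and none on the other 46 genes. The transcripts differ in length, and this comparison does not adjust for it.

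Away from starts, many of the peaks on channel genes lay in repeats. The 48 genes and the 1 kb around them held 163 RNH peaks over the 4 libraries, counting a site once per library, on 41 genes. Of the 63 with a summit within 1 kb of a start, 0 were repeat-masked over at least 50% of their length in the RefSeq assembly. Of the 100 others, 40 were. By library these were 13 of 36 and 7 of 10 in WT and 19 of 47 and 1 of 7 in TKO. Over all coding genes the masked share was 32.9% and 45.7% in WT and 33.7% and 26.6% in TKO. That share took peaks with a summit inside a coding gene and over 1 kb from the starts of every annotated gene. The channel peaks were held away from starts of the named gene only and could lie up to 1 kb outside it. For peaks near a start no share over all genes was computed, so the 0 of 63 cannot be called particular to channel genes.

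The peaks in introns of Cacna2d1 and Kcnd2 are shown because both were found in WT replicates 1 and 2 and in TKO replicate 1, and because they turned out to share sequence. Below is the Cacna2d1 peak of WT replicate 2, with the longest run that it shares with the Kcnd2 peak of the same library in capitals.
Cacna2d1, chr5:16072772-16073049, plus strand, GRCm38.p6: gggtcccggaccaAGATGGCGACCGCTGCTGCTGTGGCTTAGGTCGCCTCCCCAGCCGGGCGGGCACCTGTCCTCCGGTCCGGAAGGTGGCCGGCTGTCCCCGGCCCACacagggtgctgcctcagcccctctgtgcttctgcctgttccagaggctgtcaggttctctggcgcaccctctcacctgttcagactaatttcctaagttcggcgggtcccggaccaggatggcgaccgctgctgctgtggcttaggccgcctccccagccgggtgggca
The run is 96 bases with 9 CpG and 74.0% G and C, at chr5:16072785-16072880 on the plus strand and at chr6:21394331-21394426 on the minus strand in Kcnd2. All 278 bases of the peak are repeat-masked. The Cacna2d1 peak lies inside the listed gene transcript, and the Kcnd2 peak lies in the gap between its first gene piece, which ends at 21392501, and the next, which starts at 21401360. Its first 30 bases, searched on both strands, stood in 17 of the 163 peaks, in introns of 5 channel genes: Kcnab1, Cacna2d1, Kcnd2, Gabrg3 and Kcnc2. Their fold enrichments ran from 2.74 to 6.58, the highest of all 163, and 88.8% or more of each was masked. The same 30 bases stood in 1800 and 269 of all WT peaks and 1835 and 112 of all TKO peaks. On coding genes away from starts, 10.8% and 5.08% of WT peaks and 9.59% and 1.83% of TKO peaks held them. Of the channel peaks away from starts, 7 of 36 and 3 of 10 in WT and 7 of 47 and 0 of 7 in TKO held them. These counts are small, take a site once per library, include neighbouring peaks of 1 intron, and were not tested against the shares of all coding genes. Reads from near-identical copies can be placed at more than 1 site, and how such reads were treated is not given in the sources used here, so signal at these 5 introns cannot be told apart from signal at other copies.

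**Figure D5:**
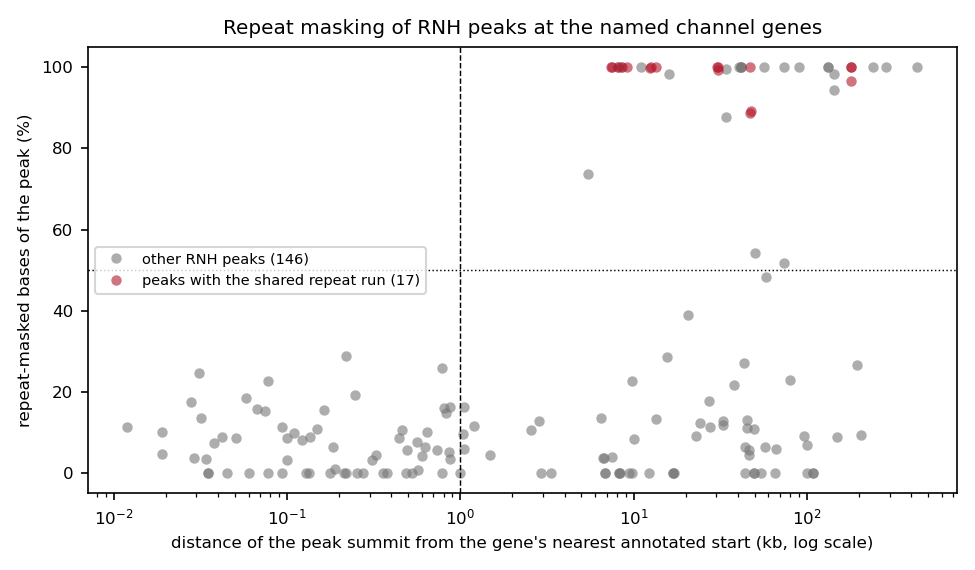
Each point is an RNH peak on or within 1 kb of the 48 channel genes, placed by the distance of its summit from the nearest annotated start of the gene (x axis, kb, log scale) and by the percent of its bases that are repeat-masked (y axis), with the 17 peaks that hold the first 30 bases of the shared run in red. All points within 1 kb of a start are under 50% masked, and the red points sit between 88.8% and 100%.

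The promoters of these genes ranged widely in base composition, from 38.3% to 82.0% G and C. RefSeq holds a promoter of 300 bases for 39 of the 48 genes. For each gene the one nearest the annotated gene start was taken. It lies far from that start at Kcnj12 (43240 bases), Kcnh2 (22013), Kcnma1 (10286) and Cacng8 (3359), which the counts below still include. By a ratio of observed to expected CpG of at least 0.6 with at least 50% G and C, 20 of the 39 (51.3%) were CpG-rich, beside 36.1% of 147 channel promoters and 47.7% of all coding promoters. The higher genes counted 9 of 17 (52.9%) and the lower ones 7 of 12 (58.3%).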

How the data were processed

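The cheRNA values are the authors' deposited table of log2 fold changes between 3 WT and 3 TKO samples, and the MapR files are the authors' peak lists, 1 per library. The deposited lists give fold enrichment over background (a ratio), -log10 p and q, and a score per peak. The build was mm10, and the tools were DESeq2, MACS2, bedtools, SAMtools, BWA and TopHat2, per the submitters' processing notes, which name no version; their options are not given in these sources. The authors' log2 sign was turned to TKO over WT. Neither file type gives read counts, so the depth behind a value is unknown.

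Transcript classes come from the deposited name prefixes. Positions, starts, exons and gene lengths come from GENCODE M21, and sequences and repeat masking from RefSeq (GRCm38.p6). Overlaps needed at least 1 bp. RNH peaks that met an MNase-only peak of either genotype were removed. For percents per library the test was an exact permutation of the libraries, two-sided (scipy 1.17.1); the overlap and permutation code was tested on simulated data. The members and lists were chosen with earlier results of these data known. Named genes are all with gene transcripts, the 10 highest and 10 lowest of other classes, those with at least 3 transcripts, with both directions, or with peaks in both replicates of a genotype, and the 5 largest gene transcripts of other channel families. Alternatives were 1 transcript per gene, an absolute log2 of at least 2, left-out regions and libraries, stricter or equal peak lists, other windows and a replicate block. Polymerase II ChIP, MNase, TT-seq and ChrMeRIP samples were not analysed here. The values of 1 gene that the rule would name are not reported here; counts include it.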

Additional observations from a re-analysis of the deposited data

How the results depend on the processing

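The share of channel transcripts higher in TKO over all classes became 72.9% with 1 transcript per gene name, outside the 95% exact binomial interval of 63.5% (62.7% of all gene names by the same choice). The shares within gene transcripts and within other classes stayed inside their intervals under every alternative tried, from 51.5% to 58.8% and from 81.2% to 91.3%. These intervals treat transcripts as independent, which pieces of 1 gene are not. They serve only as a mark of movement between settings and do not measure uncertainty. The share of channel genes in the table became 24.5% with transcripts of any class and 9.18% at an absolute log2 of at least 2, in both cases by construction. The promoter difference between TKO and WT (11.5 points) ran from -11.5 to 34.4 points when each library was left out, -8.33 points without WT replicate 2, and from 4.17 to 12.5 points under the other alternatives. The transcript difference (1.19 points) ran from -7.54 to 9.92 points when each library was left out, -5.56 points without TKO replicate 1, and from 0.40 to 1.59 points otherwise. With a replicate block the differences were again 11.5 and 1.19 points, with exact sign-flip p of 0.5 and 1, where 0.5 is the smallest possible. Whether replicate numbers pair the libraries was not settled. Deviations of same-numbered libraries from their genotype mean correlated at 0.02 over 284 bins of 10 Mb. With 2 libraries per genotype this is a single correlation, and it used shares of each list, which leave out peak number. Peak number went with replicate number in both genotypes. The table limits RNA values to 1 number per transcript, and MapR to 2 libraries per genotype of unequal peak number.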
